A study of Mus musculus with 48 samples.

Results

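Vax1, Vax2, Six3, Six6 and Rax are 5 homeobox genes of the anterior neural plate, and they are 5 of the 16510 genes in the table of counts. They were found by name, and all 5 are present. They were chosen from values measured in these cells, namely which cell kinds hold each gene in control and in Eed-cKO embryos, with no UMI of Vax2 in control and many in Eed-cKO, unlike Vax1. Every comparison of their levels between the genotypes is therefore a description, and where members past a threshold are counted nothing is read from the count. Tests that the choice did not use are given for sex and for other genes between the genotypes. Neurons with and without a member were compared as well; since the choice drew on the kinds of cell that hold each gene, the calls there for genes that mark cell kinds are a description of the positive neurons and support nothing about the choice.

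Homeobox genes encode transcription factors that bind DNA through a homeodomain. Six3, Six6 and Rax are expressed in the early anterior neural plate, from which the eyes and the hypothalamus arise; Six3 is needed to form the forebrain, Rax to form the eyes, and Six6 is known for its part in the eye, the pituitary and the suprachiasmatic nucleus. Vax1 and Vax2 are a related pair, Vax1 acting in the optic stalk and the ventral forebrain and Vax2 in the ventral retina, and in the late hypothalamus Rax marks tanycytes, the glia-like cells that line the floor of the ventricle. Many such developmental genes are kept silent outside their domains by polycomb repressor complex 2 (PRC2), which places the histone mark H3K27me3 and of which Eed is a subunit.

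The hypothalamus was taken from mice at embryonic stage E18.5 and read by single-cell RNA sequencing. Control embryos were Eed fl/fl and carried no Cre. Eed-cKO embryos were Eed fl/fl; Sox1-Cre/+, in which Cre made from the Sox1 locus deletes Eed in the neuroectoderm and so in neural cells. The paper takes blood and vascular cells as not targeted by this Cre. There were 6 control embryos (2 female, 4 male, 22 libraries) and 9 Eed-cKO embryos (5 female, 4 male, 26 libraries). Libraries of 1 embryo were summed, so that the embryo is the replicate. The paper cut each hypothalamus into pieces before dissociation, and the labels do not say how libraries relate to pieces.

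The table holds 14121 cells, with 1112165 to 4513505 unique molecular identifiers (UMIs, each 1 captured transcript) in a control library and 576432 to 2410229 in an Eed-cKO library. Cells were clustered without the 5 genes, and 13295 were kept as neural cells, 6840 of control (median 4770.5 UMIs) and 6455 of Eed-cKO (median 4426 UMIs), of which 10113 lay in 14 clusters named neuron-like from marker genes. Levels of an embryo are in CPM, a gene's UMIs against the embryo's total after TMM scaling, and those within a cell type or cluster and sums of markers are on plain totals; in a whole tissue fewer expressing cells and less RNA per cell cannot be told apart by CPM, so shares of cells with at least 1 UMI are given as well. Eed itself stood at 32.0 ± 1.89 CPM (SD, n = 6) in control and 23.4 ± 2.62 CPM (n = 9) in Eed-cKO; the floxed exons lie inside the gene and the kit reads the 3′ end, so this level does not check the labels. Of the cell barcodes, 101 occurred in more than 1 library, and no such pair had equal counts. The first part of the library names never held both genotypes, and the labels do not say what it stands for, so it and the genotype cannot be told apart.

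Six3 and Six6 encode near-identical homeodomains, so the bases by which their homeoboxes differ are shown first. Each line is the homeobox, the 180 bases that encode the homeodomain, read 5′ to 3′ on the coding strand from GRCm38 with GENCODE vM21, and capitals mark the bases that differ from the other gene.
Six3: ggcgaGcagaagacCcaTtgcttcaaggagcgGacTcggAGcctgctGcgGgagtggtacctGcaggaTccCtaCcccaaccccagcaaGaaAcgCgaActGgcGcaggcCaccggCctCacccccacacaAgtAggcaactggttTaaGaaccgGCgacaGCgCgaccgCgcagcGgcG
Six6: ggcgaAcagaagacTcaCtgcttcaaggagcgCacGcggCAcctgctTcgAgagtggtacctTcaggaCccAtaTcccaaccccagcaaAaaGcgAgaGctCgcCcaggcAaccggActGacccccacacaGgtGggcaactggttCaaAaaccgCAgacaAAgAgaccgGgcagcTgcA
Six3 and Six6 differ at 34 of 180 bases (81.1% identity), 30 of them at the third position of a codon, and 59 of 60 residues are the same. Over whole transcripts, the longest run of bases shared by a transcript of each gene is 20 bases for this pair and 23 bases for Vax1 and Vax2, so a read longer than that without errors is not shared in full by the pair.

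The homeobox lies in exon 1 in both Six3 (chr17:85621858-85622037, plus strand) and Six6 (chr12:72940437-72940616, plus strand). Rax is on chromosome 18, minus strand. The kit captures the 3′ end of transcripts, and the homeobox ends 1831 bases before the transcript end in Six3 and 3284 bases in Six6. How many reads cover the homeobox was not tested. In this annotation the Vax1 transcript ends at its stop codon, with 0 bases after it, against 330 bases in Vax2 and 3104 bases in Six6; the annotation used for counting is not given in the sources used here, and what this does to the Vax1 counts was not tested.

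Vax2 was found in Eed-cKO alone. No UMI of it was counted in any control embryo, that is 0 of 6840 neural cells, which allows a share of up to 0.0439% of cells with a UMI. In Eed-cKO embryos the level was 18.9 CPM at the lowest, 27.1 at the median and 36.9 at the highest (mean 27.6 ± 5.75, SD, n = 9), from 972 UMIs in 742 cells. The groups do not overlap, and against a floor of 3 counts over all control cells, 0.0799 CPM, Vax2 was at least 345-fold higher in Eed-cKO. The transcript was sparse where it occurred, since 77.8% of the positive cells held 1 UMI and the highest cell held 6.

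The share of Eed-cKO neural cells with a UMI of Vax2 was 10.9% ± 3.67 (SD, n = 9; 5.77% to 16.8%). The cells set apart as non-neural were endothelial-like, pericyte-like, leptomeningeal-like and microglia-like, and 268 of those of Eed-cKO were leptomeningeal-like. The paper left such cells out as not targeted by Sox1-Cre, and whether they had kept Eed was not tested here. A UMI of Vax2 in such a cell may come from the cell itself, from free RNA or from a doublet, which were not told apart. Of 480 such Eed-cKO cells, 4 (0.833%) held Vax2, at a median depth of 3702.5 UMIs, and none of the control cells did. With each cell thinned to 2000 UMIs the share was 5.37% ± 0.64, and 2.30% of cells held 2 or more UMIs. Under either reading the control share stayed at 0.

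Vax1, its closest relative, did not follow. In control embryos its level was 1.77 CPM at the lowest, 3.17 at the median and 4.17 at the highest, and in Eed-cKO it was 0.82, 2.38 and 4.31 CPM. The ranges overlap nearly in full (log2 fold change -0.35 ± 0.27, SE). The gene was rare in both genotypes, in 99 of 6840 control (1.45%) and 71 of 6455 Eed-cKO (1.10%) neural cells, and 85.9% of the positive control cells held a single UMI.

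Six3 was the most widely found member. Its level was 132, 185 and 282 CPM (lowest, median, highest) in control and 128, 154 and 207 CPM in Eed-cKO, so that the groups overlap (log2 fold change -0.29 ± 0.13). Among neural cells, 24.3% ± 2.60 held it in control against 29.4% ± 6.48 in Eed-cKO, while a positive cell held on average 4.28 UMIs in control and 2.76 in Eed-cKO. At 2 or more UMIs the shares were 16.3% in both genotypes. Thinned to 2000 UMIs they were 18.8% and 20.3%. A positive cell thus held fewer transcripts in Eed-cKO, while the share of cells differed little once the depth of the cells was set equal.

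Six6 ran 21.3, 35.2 and 48.4 CPM in control and 39.3, 51.0 and 65.8 CPM in Eed-cKO (log2 fold change 0.57 ± 0.14). The highest control embryo lies above the 4 lowest Eed-cKO embryos. The share of neural cells with a UMI was 6.97% ± 1.59 in control and 15.8% ± 4.18 in Eed-cKO, and thinned to 2000 UMIs it was 5.05% and 8.93%. As for Six3, the positive cells held fewer UMIs in Eed-cKO, 1.66 on average against 2.75. Six6 is also a pituitary gene, and the 5 pituitary markers in the table summed to 57.9 to 93.9 CPM in control and 142 to 236 CPM in Eed-cKO; without the cluster that held those markers Six6 stood at 52.8 CPM in Eed-cKO, against 52.6 CPM with it.

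Rax ran 1.74, 2.28 and 3.31 CPM in control and 3.69, 6.89 and 17.5 CPM in Eed-cKO (log2 fold change 1.95 ± 0.32). The groups do not overlap, and 3 Eed-cKO embryos, between 14.3 and 17.5 CPM, stand above the other 6. Among neural cells, 0.92% ± 0.18 held it in control against 3.05% ± 1.60 in Eed-cKO. The counts behind these values are low, 89 UMIs in all control embryos and 321 in all Eed-cKO embryos.

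Across all genes tested, 27.7% differed between the genotypes (edgeR, adjusted p under 0.05; 55.2% of these were higher in Eed-cKO, or 67.7% when counts were scaled by totals and not by TMM), and 6.66% had embryo levels that do not overlap. Vax2, Six6 and Rax, 3 of 5 members, were past the threshold, and Vax2 and Rax did not overlap; the members were chosen on this contrast, so nothing is read from these counts. In neuron-like cells alone, where 18.3% of genes differed, the log2 fold change of Six3 was -0.39 ± 0.12, also a description.

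**Figure D1:**
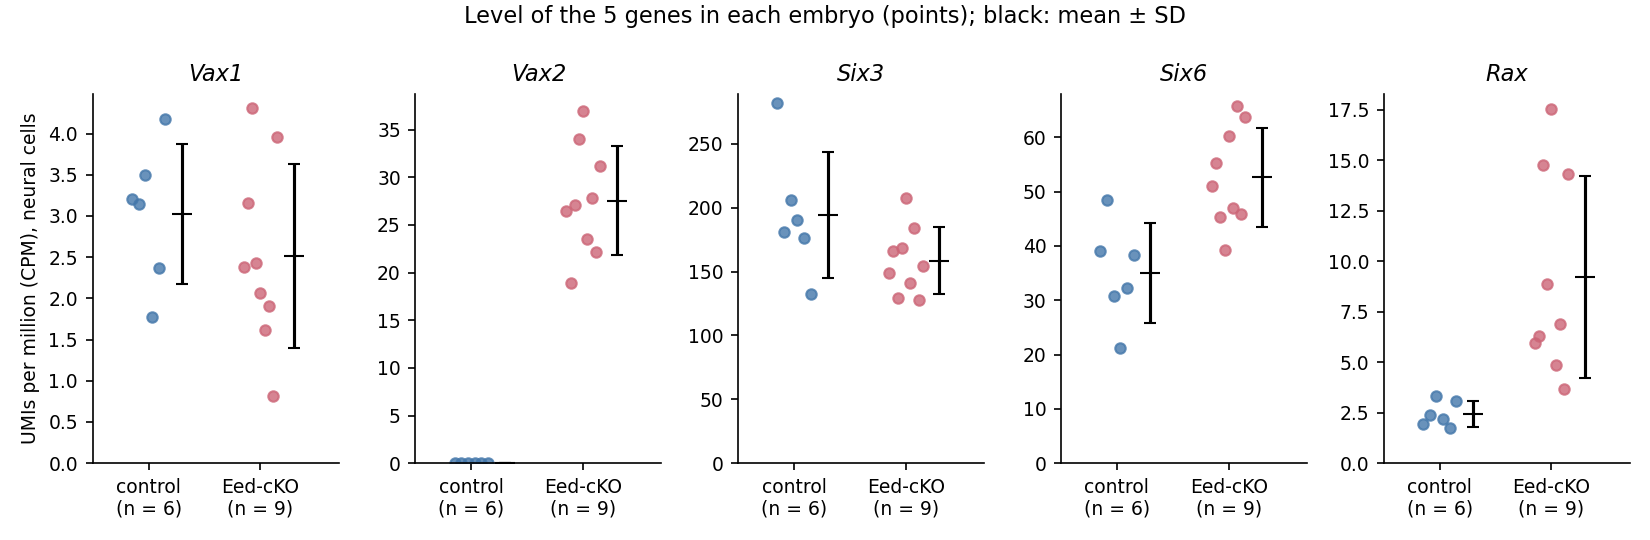
Level of each gene in neural cells, in CPM, with 1 point per embryo, blue for control and red for Eed-cKO, and the mean ± SD in black. All 6 control embryos lie at 0 for Vax2 while the 9 Eed-cKO embryos lie between 18.9 and 36.9 CPM, Rax lies higher in every Eed-cKO embryo, and Vax1, Six3 and Six6 overlap between the genotypes.

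Vax2 was not tied to a single kind of cell in Eed-cKO. Every one of the 14 neuron-like clusters held a positive cell, 9 of them above 10%, and 12 lay above the share in non-neural cells. Pooled over embryos, the shares were 29.0% in the cluster led by Trh, Samd3 and Zic4, 26.2% in that led by Pmaip1, Zic4 and Pkib, and 25.4% in that led by Tfap2b, Hoxc10 and Lamp5. This last cluster held 1470 Eed-cKO cells and 18 control cells, and all 9 Eed-cKO embryos had Vax2-positive cells in it, between 11.8% and 37.9%. It accounts for 58.0% of all Vax2-positive neurons, and Tbr1, which also marks neurons of the telencephalon, was raised in it.

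Vax2 was rare in 5 neuron-like clusters. The cluster led by Foxb1, a marker of mammillary neurons, held 0.72%, that led by Barhl1 0.44%, that led by Neurod6 and Neurod2 1.11%, that led by Emx2 and Fezf2 1.61%, and the arcuate-type cluster led by Cited1, Npy and Tbx3 2.60%. The first 2 rest on 3 of 414 and 1 of 228 cells, and the 0.833% of non-neural cells on 4 of 480. No order among these low shares can be read from so few cells, and whether they are background was not tested. Outside neurons, Vax2 was found in 10.5% of astrocyte-like, 7.46% of ependymal-like and 3.51% of tanycyte-like cells. It was in 11.4% of the cluster led by Gpr17, Sox10 and Ccnb1, in which markers of oligodendrocyte precursors and of cycling cells were both raised.

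The 2 clusters made up almost wholly of Eed-cKO cells carry part of these values. They are the Tfap2b cluster above and the cluster led by Alas2, Ccno and Shisa8, which held 1 control cell and 233 Eed-cKO cells from 5 embryos, 23.6% of them with Vax2. With both left out, Vax2 was still found in Eed-cKO alone. The Six6 difference in neurons, however, went from a log2 fold change of 0.65 ± 0.13 to 0.05 ± 0.17. This second value is pooled over the 12 other clusters, whose sizes differ between the genotypes (the Sp8 cluster held 1292 control and 211 Eed-cKO cells), and single clusters differ from it, as given below. Vax1 went from -0.25 ± 0.29 to -0.95 ± 0.34.

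Six3 and Six6 were high together in some clusters and apart in others. In control, Six3 was found in 71.4% of tanycyte-like cells, 65.5% of the Pmaip1 cluster, 41.2% of the cluster led by Sp8, and 39.9% of that led by Vgll2, Nr5a1 and Fezf1, the last being genes of the ventromedial nucleus. The highest shares of Six6 in control lay in the Pmaip1 cluster (27.0%), in tanycyte-like cells (23.1%) and in the Cited1 cluster (13.9%). Both genes were at or below 6% in the Foxb1, Neurod6, Emx2 and Barhl1 clusters, where Six3 ran from 2.42% to 5.77%. The share in non-neural control cells was 8.09% for Six3 and 2.31% for Six6, and embryo F4650_E2 carried much of it; without that embryo it was 4.69% and 0.72%, so that Six3 in the Foxb1 (5.29%) and Barhl1 (5.77%) clusters lies below or above it accordingly. Other control cells held Six3 with little Six6, among them astrocyte-like cells (121 and 17 of 336), ependymal-like cells (28.6% and 0%), the Trh cluster (29.4% and 0.90%) and the Lhx6 cluster (28.8% and 4.91%).

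In Eed-cKO, Six3 was at 73.0% in the Vgll2 and Nr5a1 cluster, where Six6 was at 12.4%, at 64.6% in the Pmaip1 cluster and 60.7% in tanycyte-like cells, and the Nr5a1 value rests on 89 cells. Six6 was at 49.2% in the Pmaip1 cluster and 32.7% in the Tfap2b cluster, which accounts for 53.5% of Six6-positive Eed-cKO neurons. In the Lhx6 cluster Six6 went from 16 of 326 control cells to 22 of 195 Eed-cKO cells (11.3%). In the Trh cluster it was in 2 of 221 control cells (0.90%) and in 27 of 186 Eed-cKO cells (14.5%). In ependymal-like cells it was in 0 of 42 control cells, which allows a share of up to 7.14%, and in 28 of 201 Eed-cKO cells (13.9%).

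**Figure D2:**
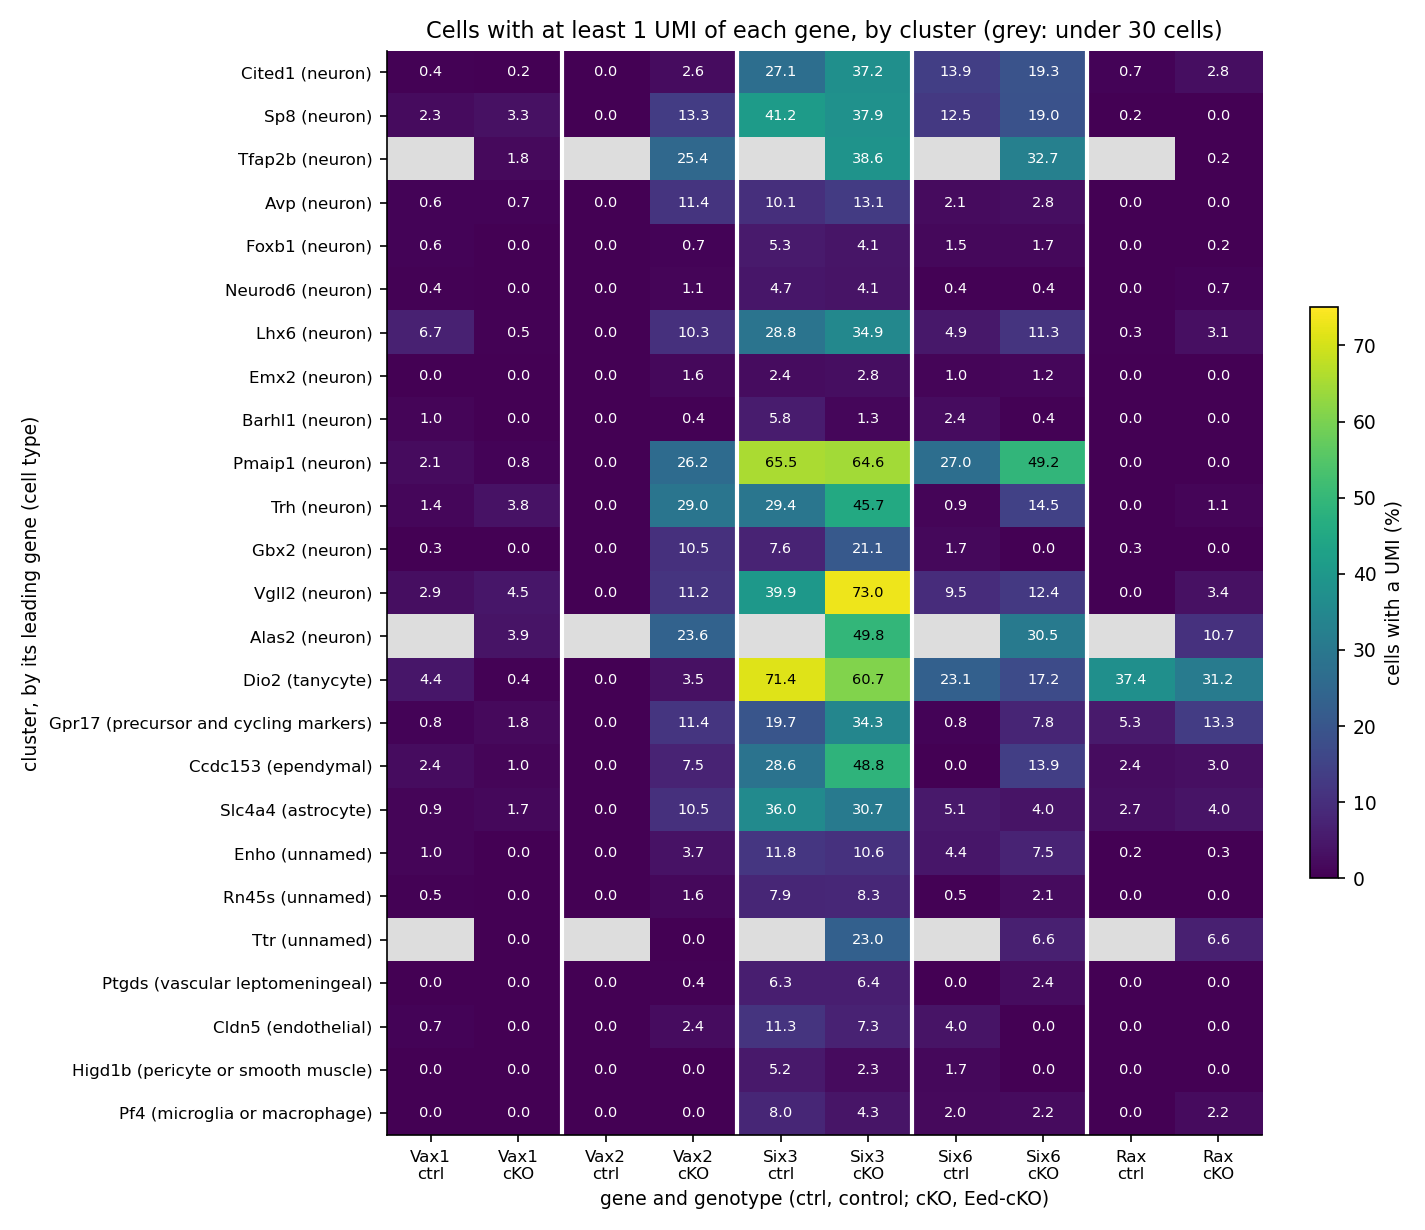
Share of cells with at least 1 UMI, in %, for each gene and genotype (columns) in each cluster of 60 or more cells (rows, by leading gene and cell type), pooled over embryos, with grey where fewer than 30 cells were present. Vax2 is 0.0 in every control column and 10% or more in 9 neuron-like rows of Eed-cKO, Rax stands out in the tanycyte row, and Six3 and Six6 are both high in the Pmaip1 and tanycyte rows but not in the astrocyte or Vgll2 rows.

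Rax was highest in tanycyte-like cells in both genotypes. It was found in 37.4% of the 91 control and 31.2% of the 285 Eed-cKO tanycyte-like cells, which held 59.6% and 50.9% of all its UMIs. Within these cells the level was 40.0 to 259 CPM over the 6 control embryos and 68.3 to 290 CPM over the 8 Eed-cKO embryos with 10 or more such cells, so the ranges overlap. Beside this, tanycyte-like cells were 1.38% ± 0.47 of control and 4.18% ± 1.28 of Eed-cKO neural cells, with no overlap between embryos (0.75% to 2.14% against 2.73% to 6.19%), and the summed level of the 8 tanycyte markers was 58.1 to 97.8 CPM in control and 159 to 271 CPM in Eed-cKO. How much of the Rax difference goes with that share was not tested.

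Part of the Rax UMIs lay elsewhere. In the cluster led by Gpr17, Sox10 and Ccnb1, 5.30% of control cells held Rax against 13.3% of Eed-cKO cells, at a mean of 19.5 and 46.9 CPM. Neurons were nearly free of it in control, with 9 UMIs in 5264 cells, against 82 UMIs in 4849 Eed-cKO cells (log2 fold change 3.29 ± 0.63). Of the 66 positive Eed-cKO neurons 29 came from embryo F0589_E1 and none from F0582_E2 or F502_E6. The pooled share was 1.36%, or 0.88% without F0589_E1, and the fold change without it 2.83. Of the neuron-like clusters, the Alas2 cluster had the highest share, 10.7%, and held 25 of the 66 positive Eed-cKO neurons. In that cluster 38.9% of the cells came from 1 embryo. Beside 6 neuron markers, Cdk1, Crym, Foxj1, Cga and Lum, each from another marker list, were raised in it. Vax1 had its highest control share in the cluster led by Lhx6 and Dlx1as (22 of 326 cells, 6.75%), and was in 1 of 195 Eed-cKO cells there.

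**Figure D3:**
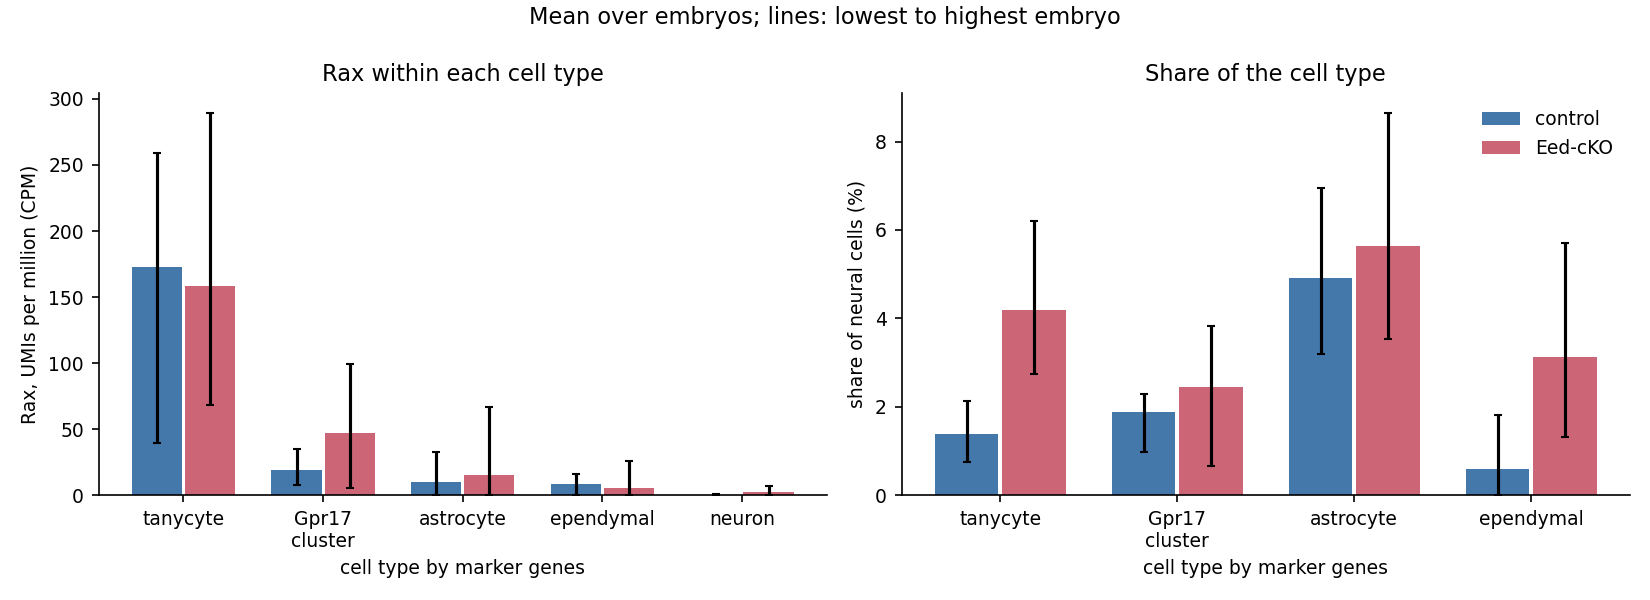
Left, Rax level in CPM within each cell type named from markers and in the Gpr17 cluster, which held precursor and cycling cell markers; right, share of each type among neural cells in %; bars are means over embryos and lines run from the lowest to the highest embryo, for control (blue) and Eed-cKO (red). The level of Rax in tanycyte-like cells overlaps between the genotypes, while the share of tanycyte-like cells does not.

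Neurons were next divided by transcripts of Slc17a6, the vesicular glutamate transporter, and Slc32a1, the vesicular GABA transporter. In Eed-cKO, Vax2 was found in 26.1% ± 7.55 (n = 9 embryos) of neurons with both, in 13.8% ± 5.65 of those with Slc32a1 only, in 8.66% ± 3.42 of those with Slc17a6 only and in 7.81% ± 4.49 of those with neither. Neurons with both were also the deepest, at a median of 6400 UMIs against 4391 for Slc32a1 only, 5369 for Slc17a6 only and 3385 for neither. They numbered 290 in control and 1071 in Eed-cKO.

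Six3 and Six6 leaned towards GABA neurons in control. Six3 was found in 42.5% ± 4.34 of Slc32a1-only and 11.9% ± 2.73 of Slc17a6-only control neurons, and Six6 in 13.4% ± 2.85 and 2.28% ± 1.03; for both genes the lowest embryo of the first class lies above the highest of the second. In Eed-cKO, the Slc17a6-only share was 21.0% ± 5.79 for Six3 and 10.9% ± 3.68 for Six6. Six6 had its highest Eed-cKO share, 34.0% ± 6.02, in neurons with both transporters.

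**Figure D4:**
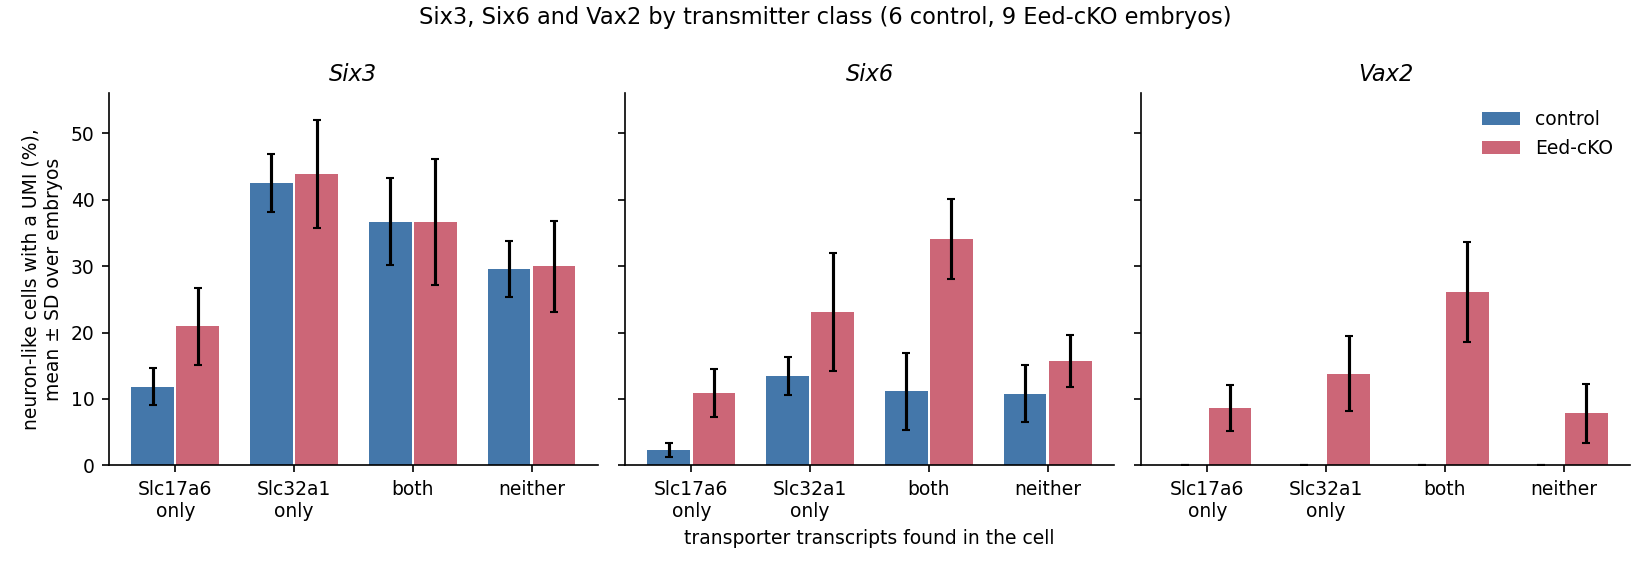
Share of neuron-like cells with a UMI of Six3, Six6 or Vax2, in %, by the transporter transcripts in the cell, as mean ± SD over 6 control (blue) and 9 Eed-cKO (red) embryos. Vax2 and, in Eed-cKO, Six6 are highest in neurons with both transporters (26.1% and 34.0%), and Six3 is lowest in Slc17a6-only neurons.

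What else the Vax2-positive neurons held was tested within the Eed-cKO embryos. The 645 positive neurons were set against 645 neurons without Vax2, matched in embryo and depth (median 6359 and 6366 UMIs), by edgeR with the embryo as a block; 268 of 8696 genes (3.08%) passed. Vax2-positive neurons carried more Hox transcripts, the genes of the posterior body axis: 11 of 12 tested rose (median log2 fold change 1.2999, against -0.0047 over all genes), among them Hoxa7 (1.59 ± 0.23, adjusted p = 9.4e-07, higher in 9 of 9 embryos), Hoxa10 (1.502) and Hoxc8 (1.44). Lhx8, Shox2, Zic2 and Crabp1, of which the first 3 encode transcription factors and the fourth a retinoic acid binding protein, also rose, by log2 1.45, 1.27, 1.19 and 1.15.

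Of the members, Six6 rose in Vax2-positive neurons, by log2 0.62 ± 0.14 (adjusted p = 0.0035), from 52.7 to 83.2 CPM, in 8 of 9 embryos. Six3 was tested and did not pass (0.11 ± 0.11, adjusted p = 0.80), as were Vax1 and Rax, each with few UMIs. Of 8 GABA genes tested 3 rose, Slc32a1 (0.85), Gad2 (0.76) and Gad1 (0.63), and 3 of 7 glutamate neuron genes fell, Neurod6 (-2.20), Nhlh2 (-0.99) and Neurod1 (-0.71), while Tbr1 rose (0.91). The largest fall was that of Foxb1 (-2.72 ± 0.20), from 102 to 13.0 CPM.

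Peptide genes divided. Of 18 tested, Avp (2.18), Penk (1.26), Sst (1.07), Pnoc and Gal rose in Vax2-positive neurons and Agrp (-2.99), Nts (-2.17), Pomc (-2.16), Npy (-1.80) and Pdyn fell. Avp was higher in 6 of 9 embryos and its call is lost when all negative neurons are used. The 8 telencephalic neuron markers in the table summed to a median of 217 CPM in positive and 206 CPM in negative neurons, and the 5 pituitary markers to 97.4 and 155 CPM. The 5 retina markers summed to 33.6 and 10.1 CPM (11.8 to 54.1 and 0 to 26.5 over embryos), and 1 of them was testable and rose.

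Most of these calls were lost within clusters. When each negative neuron was drawn from the same cluster of the same embryo as the positive one, 5 of 8849 genes passed (0.0565%): Avp (2.22) and Sst (0.75) rose and Nr4a2 (-1.1975), Foxp2 (-0.63) and Igf2 (-0.88) fell, these last 3 named because so few passed. None of 16 Hox genes passed and their median was 0.09. Six6 stood at 0.15 ± 0.13 (adjusted p = 1.00), and Zic2, Nhlh2, Gad1, Tbr1 and Pnoc stood on the other side of 0, at -0.02, 0.09, -0.01, -0.26 and -0.14. Without adjustment 376 genes had a p under 0.05 in this comparison.

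The same test was run for Six3. In control, 1325 positive neurons were set against as many without it, and 395 of 10912 genes passed (3.62%). Six6 rose by log2 3.21 ± 0.16 (adjusted p = 1.2e-13), from 12.0 to 113 CPM and in 6 of 6 embryos. Six3os1, the antisense RNA that starts beside Six3, rose by 4.28; its exons overlap those of Six3 by 106 bases, and the sources used here do not say whether counting used strand. Gata3 and Tal1, partner factors that mark a class of GABA neurons, rose by 3.65 and 3.58, and Pax6, the eye and forebrain regulator, by 2.18.

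In Six3-positive control neurons 6 of 8 GABA genes rose, led by Slc32a1 (1.21), Gad2 (1.10) and Gad1 (0.95), and 5 of 7 glutamate genes fell, led by Neurod6 (-2.55) and Neurod2 (-1.97) and with Slc17a6 at -0.99. Of 26 peptide and dopamine genes 7 rose and 9 fell (median -1.02). Agrp (2.83), Pomc (2.68) and Npy (1.92) were among the first, and Oxt (-5.44), Ghrh (-4.19) and the dopamine transporter Slc6a3 (-3.59) among the second. Among transcription factors Foxb1 (-3.22), Emx2 (-2.42) and Nkx2-1 (-1.18) fell, and over all genes 157 rose and 238 fell.

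In Eed-cKO, Six3-positive neurons (1465) differed in 498 of 10652 genes (4.68%). Six6 rose by 1.51 ± 0.11 (adjusted p = 5.1e-15), from 37.2 to 98.5 CPM and in 9 of 9 embryos. Vax2 stood at 0.43 ± 0.14 and did not pass (adjusted p = 0.065). All 8 GABA genes tested rose, 4 of 7 glutamate genes fell, and 9 of 21 Hox genes rose, led by Hoxc9 (1.02). With negatives of the same cluster none of these GABA, glutamate or Hox genes passed, and the Hox median was 0.04. Sox1, the gene that drives the Cre, rose by 1.39 in these cells.

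Six6-positive neurons were compared in the same way. In control, 409 positive neurons differed from their matches in 345 of 8787 genes (3.93%), with Six3 up by log2 1.90 ± 0.13 (adjusted p = 5.5e-15), from 181 to 636 CPM. Agrp rose by 5.40 ± 0.33, from 3.13 to 177 CPM, Npy by 3.97 and Pkib by 3.57, and of 9 tested genes of the suprachiasmatic nucleus, the seat of the circadian clock, Vip (4.75), Rora (2.45), Rorb (1.17) and Zfhx3 (0.30) rose while Tshz1 fell (-1.05). Vip was higher in 4 of 6 embryos, and its call is lost without embryo F4520_E4. Lhx6 (-3.10) and Sim1 (-3.01), a regulator of the paraventricular nucleus, fell.

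In Eed-cKO, 898 Six6-positive neurons differed in 337 of 9469 genes (3.56%). Both Six3 (1.02 ± 0.10, adjusted p = 2.8e-11, 8 of 9 embryos) and Vax2 (0.75 ± 0.15, adjusted p = 4.9e-04, 9 of 9 embryos) rose. Of 8 GABA genes 7 rose, led by Gad1 (1.14), and 14 of 16 Hox genes rose, led by Hoxb7 (2.07) and Hoxc10 (1.62). With negatives of the same cluster 1 of 8 GABA genes and 2 of 18 Hox genes rose, and the Hox median was 0.14. Of 18 peptide and dopamine genes 5 rose, Pomc (1.78), Agrp (1.67) and Npy (1.21) among them, and 5 fell, with Nts at -2.87.

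Within clusters the calls between Six3 and Six6 were kept, while that of Vax2 and most of the GABA, glutamate and Hox calls were lost. With negatives of the same cluster, 1.49% of genes passed for Six3 and 1.51% for Six6 in control, and 0.716% and 0.371% in Eed-cKO. Six6 was still higher in Six3-positive neurons, by 2.22 in control and 0.68 in Eed-cKO, and Six3 in Six6-positive neurons, by 1.33 in control and 0.29 ± 0.07 in Eed-cKO (adjusted p = 0.029). Vax2 stood at 0.25 ± 0.14 in Six6-positive neurons (adjusted p = 0.94). For Six3 in control none of 8 GABA genes rose and 1 fell, Gad1 stood on the other side of 0 (-0.11), and none of 6 glutamate genes passed, and for Six6 in control none of 8 GABA genes passed, while Agrp was still higher in Six3-positive control neurons (1.47) and, for Six6 in control, stood at 0.99 and did not pass (adjusted p = 0.24). The depths were matched less closely here, at a median of 5555.5 UMIs in positive and 5215.5 in negative neurons for Six3 in control.

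As plain counts, 72.6% of Six6-positive control neurons also held Six3, against 21.2% of the others, and in Eed-cKO 52.7% against 25.1%. Of Vax2-positive neurons, 42.9% held Six3, 34.6% held Six6 and 1.71% held Vax1. These counts are not matched for depth.

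By the peptide a neuron held, Vax2 was in 159 of 644 Eed-cKO neurons with Sst (24.7%), 159 of 736 with Gal (21.6%), 85 of 411 with Penk (20.7%) and 36 of 212 with Trh (17.0%). It was in 3 of 42 with Agrp (7.14%), 4 of 70 with Ghrh (5.71%) and 1 of 55 with Tac2 (1.82%). These groups of neurons had median depths of 5292 to 6864 UMIs. Over all Eed-cKO neurons the share was 13.3%, at a lower median depth of 4895 UMIs, and these shares are not matched for depth. Groups of neurons with other peptides are not listed here.

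**Figure D5:**
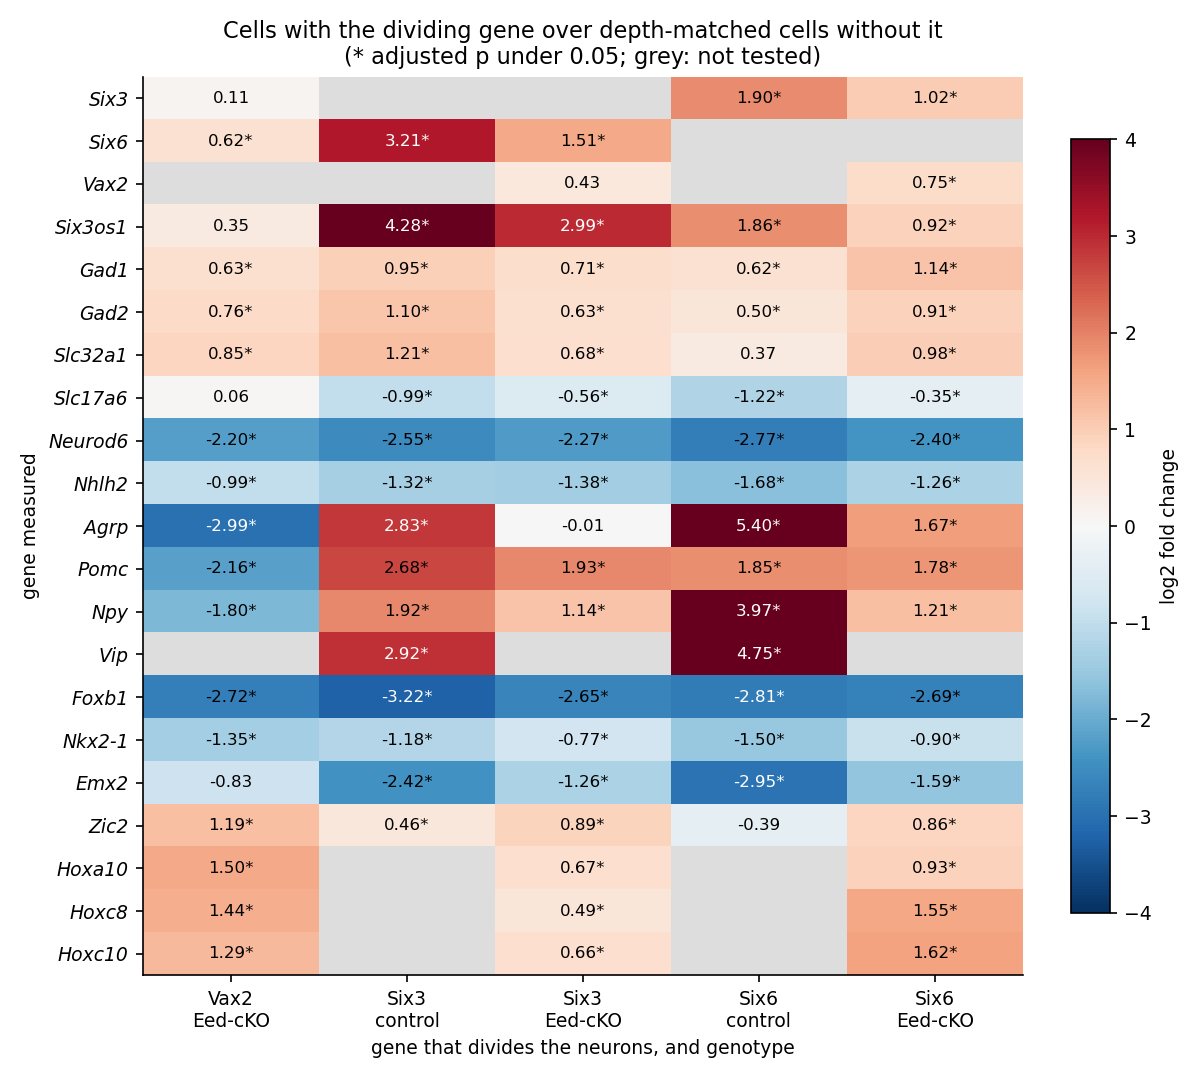
Log2 fold change of each gene (rows) in neurons with Vax2, Six3 or Six6 over depth-matched neurons of the same embryos without it (columns, by genotype), with a star at an adjusted p under 0.05 and grey where a gene was not tested. Six6 is higher in all 3 columns that test it (0.62, 3.21 and 1.51), Foxb1 is lower in all 5, and the 3 Hox genes shown are higher in all 3 Eed-cKO columns.

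Other genes of these families and of the eye field were compared between the genotypes by edgeR in all neural cells, beside the 27.7% background. Of the 8 Eya, Dach and further sine oculis homeobox genes tested, which work together in one network, 6 rose and none fell. A gene near 0 in control entered this test only if it was raised in Eed-cKO, by the filter given with the Hox genes below. Six2 went from 7 to 193 UMIs, and Eya1 rose by log2 2.46 ± 0.22, from 1.76 to 9.65 CPM. Six5 (1.52) and Eya2 (0.83) also rose, and Dach1 rose by 0.29 (adjusted p = 0.049), a call that most alternatives lose. In neurons alone 2 of 5 rose. The median of the list was 1.17, against 0.01 over all genes.

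Of 9 eye field and optic stalk genes tested, 5 rose and 2 fell. Tbx5, which marks the dorsal retina, went from 2 to 298 UMIs, and Pax2, an optic stalk gene, from 9 to 240 UMIs. Tbx3 (1.32), Otx2 (1.32) and Lhx2 (1.00) rose. Nr2f1 (-1.29) and Nr2f2 (-0.78) fell. Otx2 is also a choroid plexus marker, and the 5 choroid plexus markers summed to 14.6 to 48.2 CPM in control and 39.4 to 337 CPM in Eed-cKO; its part in the Otx2 value was not tested, and in neurons alone Otx2 rose as well.

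Among 13 anterior forebrain transcription factors, 5 rose and 2 fell, with Foxd1 at 2.86, Nkx2-4 at 1.63 and Sp8 at -0.87. Of 12 patterning signals and antagonists, Bmp4 (2.91), Bmp7 (1.78), Fgf10 (1.42) and Sfrp1 (0.58) rose and Tcf7l2 (-1.80) fell. Of 9 suprachiasmatic nucleus genes, 5 fell and none rose: Avp (-1.87), Vip (-1.41), Grp (-1.17), Rorb (-0.46) and Rora (-0.33). Few neurons held Vip, 18 of 5264 in control and 37 of 4849 in Eed-cKO. Its fall in CPM is thus not a fall in the number of positive neurons. All 25 Hox genes tested rose, and Hoxc10, for one, went from 0 to 2118 UMIs. The gene filter asked for a median log-CPM of at least 1.5 over all embryos, most of them Eed-cKO. A gene silent in control could thus enter only by being high in Eed-cKO, so nothing is read from the direction of such genes. Of 8 GABA genes 2 fell, led by Dlx1 (-1.06), of 7 glutamate genes 2 rose, led by Tbr1 (0.88, a call that several alternatives lose), and of 26 peptide and dopamine genes 5 rose, led by Pomc (2.36), and 11 fell, led by Oxt (-3.16).

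The genes that lie beside the members gave no common pattern. Next to Vax2, Vax2os, the antisense gene that overlaps its start, went from 1 to 51 UMIs, and Atp6v1b1, 4.68 kb beyond its end, from 2 to 10 UMIs; neither was abundant enough for a test, while 1700124L16Rik was tested and did not pass (0.15). Vax2os was in 7 of 742 Vax2-positive cells (0.94%) and in 0.61% of the other Eed-cKO neural cells. Next to Vax1, Eno4 rose (1.14) and Shtn1 (-0.38) and Slc18a2 (-0.77), the vesicular monoamine transporter, fell.

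Six3 and Six6 have relatives close by. Six2, given above, lies 55.0 kb from Six3, and Six4, 155 kb from Six6, went from 3 to 9 UMIs. Six3os1 did not pass in neural cells (0.08) and fell in neurons (-0.58 ± 0.15, adjusted p = 0.0075), where Six3 stood at -0.39. 4930447C04Rik, whose exons overlap Six6 by 192 bases on the other strand, rose by 1.12 ± 0.14 (adjusted p = 5.9e-06), so that without strand its reads and those of Six6 cannot be told apart there. Beside Rax, Grp (-1.17) and Sec11c (-0.31) fell, Lman1 did not pass (0.30, adjusted p = 0.052) and Ccbe1 had 41 and 97 UMIs; the exons of Rax overlap those of Raxos1, also on the other strand, by 1604 bases.

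Over 47 sums of a cluster in a genotype, which share libraries and depth, the genes whose levels were most like those of each member were named by Pearson correlation of log2(CPM + 10), as a description. Vax2 was most like Hoxb13 (0.91), Nkx2-5 (0.89) and Hoxc10 (0.86), and over the 25 Eed-cKO sums alone most like Hoxb13 (0.85), Tbr1 (0.83) and Nkx2-5 (0.82). Six3 was most like Six3os1 (0.86), Gm5607 (0.83) and Six6 (0.81), and Six6 like Six3 (0.81), Dlx2 (0.75) and Isl1 (0.75). Rax was most like Cpa4 (0.90), Fndc3c1 (0.87) and Pdzph1 (0.86). Vax1 had lower values, 0.61 with Six3 and with Dlx1, and its value with Vax2 was 0.075; over the 22 control sums it was most like Dlx1 (0.81) and Dlx2 (0.80).

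Sex had no part in choosing the genes, and no member passed the test for it. With the genotype in the model, 4 of 12545 genes (0.0319%) passed between males and females, all 4 of them Y-linked, with 472 genes at an unadjusted p under 0.05 and 6 calls by DESeq2. The male over female log2 fold changes of the members ran from -0.14 ± 0.13 for Six3 to 0.14 ± 0.15 for Six6 (edgeR, adjusted p = 1.00 for each). Vax2 stood at 28.7 ± 4.04 CPM in 5 female and 26.1 ± 7.84 CPM in 4 male Eed-cKO embryos, which overlap, and at 0 in control embryos of both sexes.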

How the data were processed

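Single cells of E18.5 hypothalamus were prepared with a 3′ whole-transcriptome kit, and the authors deposited 1 table of counts (UMIs per gene and cell) made with STAR 2.5.2b and SAMtools 1.3 on mm10, per the submitters' processing notes; whether counting used strand, and which annotation, is not given in the sources used here. The table holds cells of at least 601 UMIs. Cell types were rebuilt, not taken from the authors: scanpy 1.11.5, members left out, 2000 variable genes, 30 components, 15 neighbours, resolution 1. A cluster was named when 3 or more markers of a list were raised; the neuron list was set against cells of the clusters that other lists named, a choice made after seeing the data. Doublets were not removed in the main fits; an alternative leaves out the 6% of cells with the highest Scrublet scores.

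UMIs were summed per embryo and tested by edgeR 4.0.16 quasi-likelihood (TMM, Benjamini-Hochberg, threshold 0.05); DESeq2 1.42.0 and limma 3.58.1 served as alternatives. Positive and negative neurons were compared with the embryo as a block. Nothing in the labels pairs control with Eed-cKO embryos. Floors and the shares allowed by a count of 0 cover counting error only, while SDs are over embryos. SEs are the size of the edgeR log2 fold change divided by the square root of its quasi-likelihood F statistic. On simulated counts for the genotype comparison (12533 genes) 94.7% of genes changed 2-fold and 100% of those changed 4-fold were recovered; for Vax2-positive neurons (8613 genes) these were 89.1% and 100%.

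The members and the gene lists were chosen with earlier results of these data known. Genes named are the members, listed genes past the threshold (at most 6 per list and direction), the 2 nearest genes on each side, the 10 largest rises and falls in positive neurons with the same sign in every embryo, and the 5 genes most alike in pattern; exceptions are named as such. Results for a few genes and 1 sequence are not reported here.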

Additional observations from a re-analysis of the deposited data

How the results depend on the processing

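Of 2346 single-gene values recomputed under the alternatives, 2209 kept their direction and side of the threshold, 118 were no longer past it, 13 were newly past it and 6 turned. All 6 turned with negatives of the same cluster, a comparison added after seeing the data: Gad1 for Six3 in control (-0.11), and Gad1 (-0.0052), Nhlh2 (0.086), Pnoc (-0.14), Tbr1 (-0.26) and Zic2 (-0.022) for Vax2.

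The count of genes called between the genotypes, 3469, was 1495 with limma-voom TREAT on embryo sums and 5883 with libraries as samples, and ranged from 2833 to 3853 with 1 embryo left out. In neurons, 2189 became 1407 without the 2 neuron-like clusters of under 20 control cells, also added after seeing the data, and 1562 to 2757 with 1 embryo left out; without those clusters Vax2 stood at 8.77, Six6 at 0.05 and Vax1 at -0.95. Sex gave 4 to 10 calls, 10 without Eed-cKO embryo F0589_E1. The fitted Vax2 fold change, 10.04 against control embryos at 0, depends on the prior count and was 8.44, 6.50 and 8.40 with limma on embryo sums, limma on libraries and libraries in edgeR.

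For positive neurons, using all negative cells gave 621 calls for Vax2, 669 for Six3 and 796 for Six6 in control, and 545 for Six6 in Eed-cKO. DESeq2 gave 158 for Six3 and 126 for Six6 in control and 223 for Six6 in Eed-cKO. Negatives of the same cluster gave 5 for Vax2, 160 and 131 for Six3 and Six6 in control, and 76 and 35 in Eed-cKO. With 1 embryo left out the counts ran 196 to 298 for Vax2, 290 to 393 and 217 to 308 for Six3 and Six6 in control (217 without F4520_E4), and 342 to 540 and 254 to 341 in Eed-cKO. The cause of these changes was not tested.

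The shares of cells in control and Eed-cKO at 2 or more UMIs were 0.22% and 0.081% for Vax1, 16.3% and 16.3% for Six3, 4.19% and 5.76% for Six6, 0.28% and 1.02% for Rax, and 2.30% for Vax2 in Eed-cKO. Thinned to 2000 UMIs, which leaves out 1231 control and 1015 Eed-cKO cells, they were 0.76% and 0.46% for Vax1, 18.8% and 20.3% for Six3, 5.05% and 8.93% for Six6, 0.60% for Rax in control and 5.37% for Vax2 in Eed-cKO.

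The pooled shares of Six3 and Six6 in non-neural control cells and of Rax in Eed-cKO neurons were recomputed without each embryo, an alternative also added after seeing the data, and ran 4.69% to 9.25%, 0.72% to 3.09% and 0.88% to 1.503%. Calls that 1 embryo decides were those of Gal (F0652_E8) and Pdyn (F0571_E3) for Vax2, Vip (F4520_E4) for Six6 in control and Agrp (F0571_E3 or F0652_E5) for Six6 in Eed-cKO. Vax2 in Six3-positive Eed-cKO neurons passed without F0589_E1 or F0652_E8. The calls of Neurod1 for Vax2, Zfhx3 for Six6 in control, and Dach1, Tbr1 and Rora between the genotypes were each lost without any 1 of 5 or more embryos. No paired analysis was possible because control and Eed-cKO embryos are different animals; comparisons of positive with negative neurons already hold the embryo as a block.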
